A study of Mus musculus with 6 samples.

Results

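Ephrins, Eph receptors, Robo receptors, the netrin receptor *Unc5b* and the semaphorin receptor *Plxnd1* steer growing vessels in much the same way as they steer axons. Ephrin ligands are bound to the cell surface and signal in both directions when they meet an Eph receptor on a neighbouring cell, and *Efnb2* on arteries and *Ephb4* on veins keep these beds apart. Robo receptors bind Slit proteins, although *Robo4* is restricted largely to endothelial cells (ECs), lacks part of the ectodomain of its relatives and binds Unc5b. Secreted class 3 semaphorins act through plexins, mostly with a neuropilin as co-receptor.

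The levels of 10 such genes were described here in primary ECs, which form the inner lining of vessels, after loss of *Stk11*, which encodes the kinase Lkb1. They were taken by symbol, and for each the row with an Ensembl transcript and the most counts was used, so that 10 loci of the 53530 with an Ensembl transcript were followed, and all 10 were among the 17396 loci that passed the filter on low counts. RNA was sequenced from 3 libraries of *Stk11*ec-/- ECs, labelled *Stk11*-/- knock out, and from 3 libraries of wild-type (WT) ECs, all on a C57BL/6 background and from mice 2 months of age by the labels. In *Stk11*ec-/- mice, Cre driven by *Cdh5* deletes the floxed alleles in ECs. The sources used here do not say whether the WT mice carried a floxed allele or Cre, from which tissue the ECs came, or how many mice stand behind each group. The p-values therefore cover the spread among libraries alone, which may be technical.

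Counts over all loci ranged from 37114459 to 55545899 in *Stk11*ec-/- libraries and from 22179567 to 52795240 in WT libraries. *Stk11* itself was at 75.9 ± 13.1 CPM (counts scaled to library size after TMM normalization) across *Stk11*ec-/- libraries and 79.1 ± 11.6 CPM across WT libraries (SD, n = 3 each). This value of the whole locus also holds the exons outside the deleted part, so it does not check the labels. *Xist*, which coats and silences the second X chromosome, ranged from 267 to 464 CPM among *Stk11*ec-/- libraries and from 0.598 to 1.18 CPM in WT libraries, so that sex as read from this gene and genotype cannot be told apart. Values of single libraries are given below in the order of replicates 1, 2 and 3 of each group. The EC label was checked against 17 measured genes expressed across ECs. Their summed level was 1710, 3291 and 402 CPM across *Stk11*ec-/- libraries, and 1144, 692 and 433 CPM across WT libraries. Of these 17 genes, 15 had a log2 fold change above 0, with a median of 1.95, and 4 had an unadjusted p under 0.05 on the higher side, where 4.36% of all tested genes did. At an adjusted p under 0.05 edgeR called 0 of the 17, the groups overlapped for each, and the lowest sum of all 6 libraries was that of *Stk11*ec-/- replicate 3. *Cdh5*, the cadherin of endothelial junctions, was detected in all 6 libraries, at 37.5 to 831 CPM among *Stk11*ec-/- libraries, against 101 to 222 CPM in WT libraries. Summed over 12 fibroblast markers, the level was 489, 927 and 14829 CPM across *Stk11*ec-/- libraries, and 3813, 2191 and 7164 CPM across WT libraries. For these bulk libraries, fewer cells of a type and less RNA per cell cannot be told apart. The methods describe sorting of bone marrow ECs by VE-cadherin in successive rounds, which would remove fibroblasts, mural cells and epithelia, but they do not say whether these libraries came from that sort.

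To show sequence at annotated starts of these genes, windows of 300 bases around such starts were read from RefSeq (GRCm38.p6), where all 10 genes had at least 1 window and *Efna1* had 2. The *Robo1* window (chr16:72662899-72663198) lies inside its locus, which starts at 72308306, and so does not show the start of that locus. The *Unc5b* window (chr10:60831532-60831831) lies outside its locus, which ends at 60831382. Of the 10 genes, 7 held a GC box (GGGCGG, all motifs being searched on both strands), which 35.7% of all 32851 windows hold. *Epha2* alone held a full cyclic AMP response element (TGACGTCA), the motif bound by CREB family factors and found in 1.79% of all windows, and it also held its shorter core TGACG, which overlaps it and occurs in 20.8% of all windows, as did *Efnb1* and *Efnb2* with no full site. *Efnb2* alone held TATAAA, found in 13.6% of all windows. *Robo4* and *Robo1*, together with *Efnb1*, held no GC box, whereas GGAA, the core of ETS family sites, occurred in all 10 genes and in 96.0% of all windows. The windows of 3 genes are given 5′ to 3′ because they hold different sets of these letters and include the genes with the smallest and the largest spread between libraries. A match is a description of letters and not a site of binding.

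*Epha2*, chr4:141300971-141301270, plus strand, capitals mark the GC box and the cyclic AMP response element: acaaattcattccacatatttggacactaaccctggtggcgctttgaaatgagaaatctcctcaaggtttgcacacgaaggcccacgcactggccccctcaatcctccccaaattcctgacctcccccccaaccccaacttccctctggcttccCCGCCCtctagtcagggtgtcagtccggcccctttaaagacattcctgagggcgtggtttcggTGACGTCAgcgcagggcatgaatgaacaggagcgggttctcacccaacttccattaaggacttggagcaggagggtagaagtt
*Efnb2*, chr8:8661193-8661492, minus strand, capitals mark GC boxes and the TATAAA letters, here on the opposite strand: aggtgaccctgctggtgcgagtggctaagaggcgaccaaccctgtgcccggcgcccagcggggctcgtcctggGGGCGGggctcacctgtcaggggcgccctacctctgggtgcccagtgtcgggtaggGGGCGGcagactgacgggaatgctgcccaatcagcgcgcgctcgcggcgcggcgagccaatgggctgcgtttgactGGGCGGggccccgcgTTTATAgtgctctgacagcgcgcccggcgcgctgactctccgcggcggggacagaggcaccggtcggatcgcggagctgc
*Robo4*, chr9:37401722-37402021, plus strand, capitals mark GGAA on either strand: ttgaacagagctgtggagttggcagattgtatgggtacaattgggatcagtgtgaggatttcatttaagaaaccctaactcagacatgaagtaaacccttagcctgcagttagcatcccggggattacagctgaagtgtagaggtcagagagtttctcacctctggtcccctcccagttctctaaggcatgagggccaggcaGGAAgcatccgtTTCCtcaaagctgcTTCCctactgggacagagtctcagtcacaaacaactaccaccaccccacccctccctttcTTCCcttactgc

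Levels were compared between genes by FPKM (fragments per kilobase of transcript, scaled to library size), as means over all 6 libraries. *Unc5b* was the most abundant of the 10 genes at 78.0 ± 41.1 FPKM (SD, n = 6), and it exceeded *Epha2*, at 40.2 ± 11.8 FPKM, in 6 of 6 libraries. *Unc5b* stood above 98.1% of tested genes by this mean and *Epha2* above 96.0%. *Ephb4* at 24.3 ± 14.0 FPKM, *Plxnd1* at 22.4 ± 28.0 FPKM and *Efnb2* at 13.6 ± 8.62 FPKM came next. Their order was not stable between libraries: *Ephb4* exceeded *Plxnd1* in 4 of 6 libraries and *Plxnd1* exceeded *Efnb2* in 3 of 6. *Efnb1* reached 9.14 ± 6.62 FPKM. *Robo4* at 3.24 ± 6.66 FPKM, *Efna1* at 2.88 ± 1.46 FPKM and *Sema3c* at 2.83 ± 0.811 FPKM could not be ordered beyond their spread, with *Robo4* above *Efna1* in 2 of 6 libraries. *Robo1* was the lowest at 0.511 ± 0.376 FPKM and lay below *Sema3c* in 6 of 6 libraries.

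To ask whether loss of *Stk11* in ECs goes with another level of these genes, *Stk11*ec-/- libraries were compared with WT libraries by edgeR's quasi-likelihood test over all 17396 loci. Of the 10 genes, 0 passed at an adjusted p under 0.05, where 0.0747% of all tested genes did, and 0 reached an unadjusted p under 0.05, where 7.33% of all did. The unadjusted count was 1 in some other settings, for *Efnb1*, *Robo4* or *Unc5b*, as given for each below. DESeq2 and limma on log2(FPKM + 1) called 0 of the 10 at an adjusted p under 0.05 as well, against 1.24% and 0.109% of all tested genes. In each of the 10 genes the CPM of both groups overlapped, whereas 14.3% of all tested genes had no such overlap. Two-sided exact permutation tests on log2(CPM + 0.5) gave p from 0.4 to 1, where 0.1 is the smallest that 3 against 3 libraries allow. The log2 fold change was above 0 for 6 genes and below 0 for 4, with a median of 0.22 beside 0.025 over all tested genes. None of the 95% intervals excluded 0, and their widths differ, so that a difference of 4-fold lies outside the interval of *Epha2*, *Ephb4*, *Efna1*, *Sema3c* and *Unc5b* in both directions but inside that of *Efnb1*, *Efnb2*, *Robo1*, *Robo4* and *Plxnd1* in at least 1 direction.

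**Figure D1:**
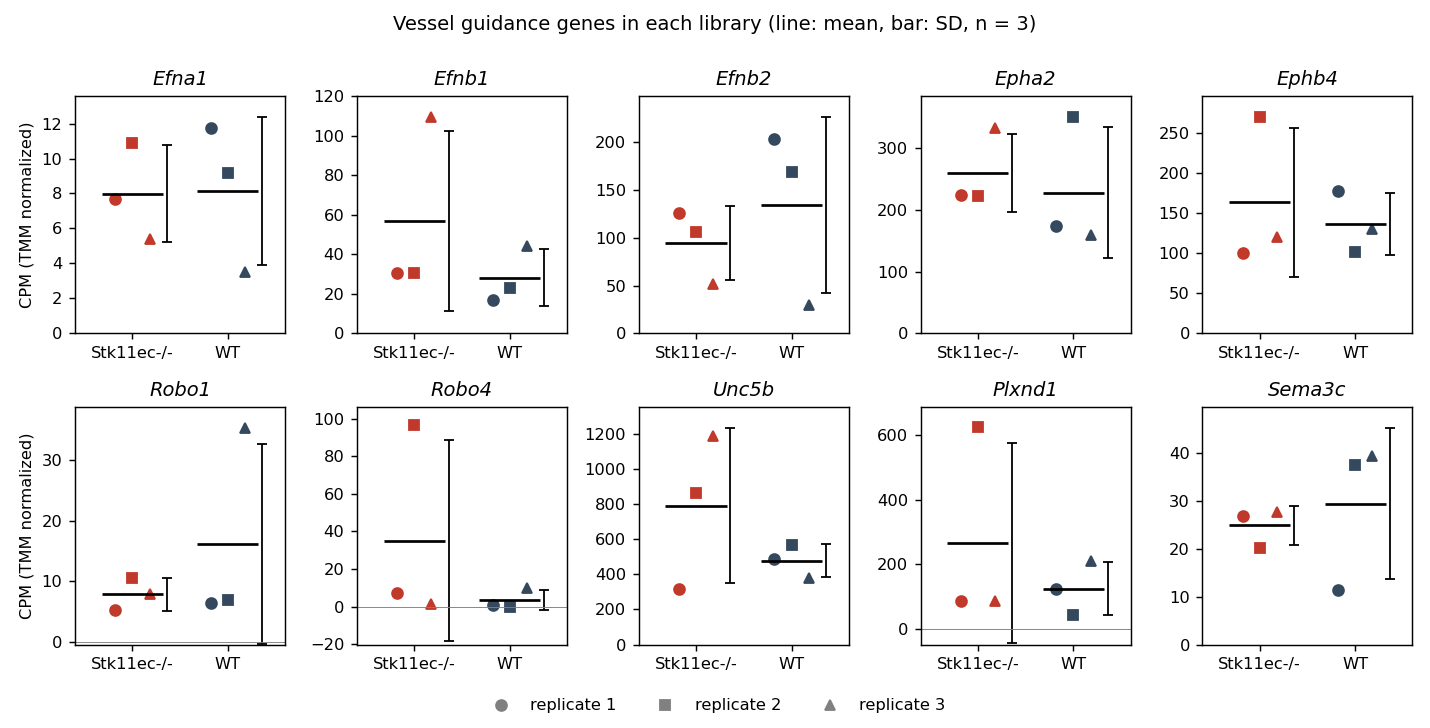
Level of each of the 10 genes in CPM (vertical axis, linear, drawn per gene) in *Stk11*ec-/- libraries (red, left) and WT libraries (dark blue, right), where each point is 1 library and its shape the replicate number, the line the mean and the bar the SD (n = 3). The groups overlap in every panel, and *Robo4* and *Plxnd1* have 1 library, *Stk11*ec-/- replicate 2, far above the other 5.

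Among the ligands, *Efna1*, a membrane-anchored A-type ephrin that binds Epha2, reached 7.71, 10.9 and 5.37 CPM across *Stk11*ec-/- libraries, against 11.8, 9.17 and 3.49 CPM across WT libraries. The gene lies at chr3:89271733-89281142 on the minus strand (GRCm38, as for all positions here). Replicate 3 was the lowest of both groups. Its log2 fold change was −0.025 (SE 0.52 and edgeR adjusted p = 0.994), and the sign depended on which library was used: it ran from −0.39 without WT replicate 3 to 0.34 without WT replicate 1.

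*Efnb2*, the transmembrane ephrin of arterial ECs, reached 126, 106 and 51.4 CPM across *Stk11*ec-/- libraries, against 204, 169 and 29.7 CPM across WT libraries. Its locus is chr8:8617434-8661242 on the minus strand. Replicate 3 was again the lowest of each group, and the 4 other libraries were all above 100 CPM. The log2 fold change was −0.51 (SE 0.67 and edgeR adjusted p = 0.890), −0.98 without WT replicate 3 and −0.07 without WT replicate 1. Reads of the *Efnb2* locus are uncertain in part, because 3 annotated genes (*E230020D15Rik*, *Gm45074* and *Gm45073*) lie on the same strand within its span.

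*Efnb1*, an ephrin of stromal cells and pericytes as well as ECs and the only X-linked gene of the 10, had the opposite order. It reached 30.4, 30.5 and 109 CPM across *Stk11*ec-/- libraries, against 17.0, 22.8 and 44.4 CPM across WT libraries. Its locus is chrX:99136130-99148991 on the plus strand. Replicate 3 was the highest of both groups, in which fibroblast markers were also highest, and the part of those markers in this level was not tested. The log2 fold change was 1.02 (SE 0.61 and edgeR adjusted p = 0.740) and 0.12 without *Stk11*ec-/- replicate 3. Its unadjusted p was 0.139 by edgeR, 0.0441 by limma on log2(FPKM + 1) and 0.0341 by edgeR with the replicate number as a block, with adjusted p of 0.617 by limma and 0.783 with the block. The number of X chromosomes differs with the group by *Xist*, so its part cannot be told apart from that of genotype.

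Of the receptors for these ligands, *Epha2*, a receptor tyrosine kinase bound by ephrin A1, was the steadiest of the 10, with a coefficient of variation of 32.9% over 6 libraries. It reached 224, 222 and 332 CPM across *Stk11*ec-/- libraries, against 174, 350 and 159 CPM across WT libraries. Its locus is chr4:141301240-141329384 on the plus strand. WT replicate 2 was the highest and WT replicate 3 the lowest. On the log2 scale the difference was 0.19 (SE 0.38 and edgeR adjusted p = 0.927), bounded by −0.70 and 1.08 at 95%, and took the value −0.03 if *Stk11*ec-/- replicate 3 was omitted and 0.65 if WT replicate 2 was.

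*Ephb4*, the receptor of ephrin B2 on venous ECs, reached 100.2, 270.0 and 120.2 CPM across *Stk11*ec-/- libraries, against 178, 102 and 129.99 CPM across WT libraries. Its locus is chr5:137350109-137378669 on the plus strand. *Stk11*ec-/- replicate 2, where EC markers summed to the most, stood above the other 5. On the log2 scale the difference was 0.26 (SE 0.43 and edgeR adjusted p = 0.911) with that library and −0.30 without it. The last 33 bases of the locus overlap *Zan* on the opposite strand.

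A ratio of FPKM within a library does not depend on library scaling, and 4 such ratios were computed. *Efnb2* over *Ephb4* was 0.917, 0.286 and 0.311 across *Stk11*ec-/- libraries, against 0.837, 1.21 and 0.166 across WT libraries. It spanned most of its range within each group (two-sided exact permutation test on the log2 ratio, p = 0.9, adjusted p = 0.9 over the 4 ratios, where 0.1 is the smallest p that 3 against 3 libraries allow). *Efnb1* over *Efnb2* was 0.479, 0.572 and 4.23 across *Stk11*ec-/- libraries, and 0.166, 0.268 and 2.97 across WT libraries (exact permutation test, p = 0.5, adjusted p = 0.9). *Efnb2* was the more abundant B-type ephrin in replicates 1 and 2 of both groups and *Efnb1* in replicate 3 of both. For *Epha2* over *Efna1*, p was 0.8 by the same exact test, and for *Unc5b* over *Plxnd1* p was also 0.8, each with an adjusted p of 0.9.

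*Robo4* had the widest spread of the 10 genes by coefficient of variation, followed by *Plxnd1* at 110% and *Robo1* at 96.0%. *Robo4*, the endothelial Robo receptor, reached 7.36, 96.6 and 1.13 CPM across *Stk11*ec-/- libraries, against 0.859, 0 and 9.65 CPM across WT libraries. Its locus is chr9:37401897-37415115 on the plus strand. The counts behind these levels were 422, 3763 and 53 across *Stk11*ec-/- libraries and 19, 0 and 371 across WT libraries. *Stk11*ec-/- replicate 2 thus stood far above the other 5 libraries, and WT replicate 2 had no read. In WT replicate 2 the 17 measured EC genes ranged from 0 CPM for *Sox18* to 336 CPM for *Eng*, with *Cdh5* at 178 CPM and *Kdr* at 2.08 CPM. The part of EC content in the level of *Robo4* was not tested. The coefficient of variation of *Robo4* was 198%, above that of 99.8% of tested genes. Its log2 fold change was the largest of the 10 at 3.31 (SE 1.98 and edgeR adjusted p = 0.739), bounded by −1.33 and 7.95 at 95%. Omitting *Stk11*ec-/- replicate 2 gave 0.28, and omitting WT replicate 3 gave 6.41 (edgeR unadjusted p = 0.0340, adjusted p = 0.559). With neither replicate 3 it was 6.999 (edgeR unadjusted p = 0.00957, adjusted p = 0.273). By group, *Robo4* reached 35.0 ± 53.4 CPM among *Stk11*ec-/- libraries, against 3.50 ± 5.34 CPM in WT libraries (SD, n = 3 each; two-sided exact permutation test on log2(CPM + 0.5), p = 0.4).

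*Robo1*, a Slit receptor found in many cell types, reached 5.197, 10.6 and 7.84 CPM across *Stk11*ec-/- libraries, against 6.37, 6.85 and 35.3 CPM across WT libraries. Its locus is chr16:72308306-73046095 on the plus strand. WT replicate 3, in which the sum of 11 mural cell markers was highest at 9734 CPM, stood above the other 5 libraries, all of which lay under 11 CPM. On the log2 scale the difference was −1.04 (SE 0.72 and edgeR adjusted p = 0.768) and 0.25 without WT replicate 3. The part of the mural markers in this level was not tested. *Gm49670* overlaps 343 bases of the locus on the opposite strand.

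*Unc5b*, the netrin receptor of arterial and sprouting tip cells, reached 318, 863 and 1192 CPM across *Stk11*ec-/- libraries, against 485, 566 and 379 CPM across WT libraries. Its locus is chr10:60762593-60831382 on the minus strand. The *Stk11*ec-/- group held both the lowest and the highest libraries, and 2 of its 3 libraries were above all WT libraries. On the log2 scale the difference was 0.73 (SE 0.48 and edgeR adjusted p = 0.757), bounded by −0.39 and 1.85 at 95%, and it stayed above 0 whichever single library was left out, from 0.31 without *Stk11*ec-/- replicate 3 to 1.11 without *Stk11*ec-/- replicate 1 (edgeR unadjusted p = 0.0148, adjusted p = 0.840), and with neither replicate 3 it was 0.17. *Unc5b* was highest in *Stk11*ec-/- replicate 3, where summed EC markers were at their lowest (402 CPM) and summed fibroblast markers at their highest (14829 CPM). Single EC genes differed there: *Cdh5* was at its lowest of all libraries at 37.5 CPM, whereas *Flt1* was at its second highest at 76.7 CPM. The part of these markers in the level of *Unc5b* was not tested. *Gm19972* lies within its span on the same strand.

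*Plxnd1*, the receptor through which semaphorin 3E acts on ECs, reached 88.8, 623 and 87.7 CPM across *Stk11*ec-/- libraries, against 125, 44.1 and 209 CPM across WT libraries. Its locus is chr6:115954811-115995005 on the minus strand. Like *Robo4*, it was highest in *Stk11*ec-/- replicate 2 and lowest in WT replicate 2, 14.1-fold apart. Its log2 fold change of 1.08 (SE 0.89 and edgeR adjusted p = 0.810) was −0.51 without *Stk11*ec-/- replicate 2 and 2.08 with neither replicate 3. *Sema3c*, a secreted ligand that acts through neuropilins and plexins including plexin D1, reached 26.96, 20.1 and 27.6 CPM across *Stk11*ec-/- libraries, against 11.4, 37.6 and 39.5 CPM across WT libraries. Its locus is chr5:17574281-17730268 on the plus strand. All *Stk11*ec-/- libraries lay inside the WT range, with a log2 fold change of −0.24 (SE 0.47 and edgeR adjusted p = 0.925).

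**Figure D2:**
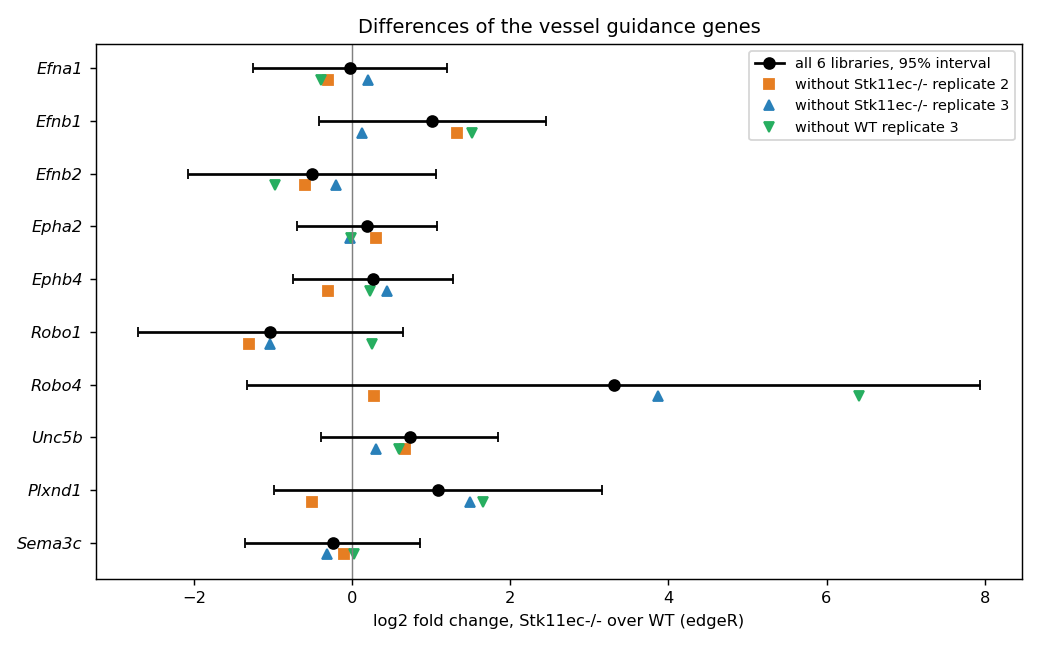
Log2 fold change of the 10 genes, *Stk11*ec-/- over WT (horizontal axis), with its 95% interval from edgeR over all 6 libraries (black) and the values without *Stk11*ec-/- replicate 2 (orange squares), without *Stk11*ec-/- replicate 3 (blue triangles) and without WT replicate 3 (green triangles). Every interval includes 0, and *Robo4* moves from 0.28 to 6.41 with the library left out.

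The genes were then set beside cell type markers, library by library. The 10 genes did not share 1 profile. After each gene was centred on its own mean of log2(CPM + 0.5), *Efna1* and *Efnb2* were the closest pair of the 10, with a root mean square difference of 0.49 over 6 libraries, and *Efnb2* and *Robo4* the most distant, with 2.91. Summed EC markers were highest in *Stk11*ec-/- replicate 2, as were *Robo4*, *Plxnd1* and *Ephb4*, yet the second highest sum, in *Stk11*ec-/- replicate 1, went with the lowest levels of *Ephb4*, *Unc5b* and *Robo1*. The part of EC content in these levels was not tested. Summed mesothelial and epithelial markers were at 496, 82.7 and 539 CPM across *Stk11*ec-/- libraries, against 676, 1869 and 118 CPM across WT libraries, so that the groups overlapped and the highest sum was in WT replicate 2, where *Epha2* was also highest. Most of each sum was *Msln*, at 1646 CPM in WT replicate 2. *Upk3b* (191 CPM) and *Wt1* (58.4 CPM) were instead highest in *Stk11*ec-/- replicate 3, and at most 2.55 and 2.08 CPM elsewhere. By edgeR, 3 of 7 tested genes of this list had an unadjusted p under 0.05 on the higher side, where 4.36% of all tested genes did. On the lower side 0 did, and 0 passed at an adjusted p under 0.05. Arterial markers, a list that holds *Efnb2* and *Unc5b*, summed to 586, 1116 and 1452 CPM across *Stk11*ec-/- libraries, against 899, 845 and 482 CPM across WT libraries. *Unc5b* alone held 318, 863 and 1192 CPM of these sums across *Stk11*ec-/- libraries, and 485, 566 and 379 CPM across WT libraries. The arterial sum is therefore not a reading apart from the genes described. Venous markers, a list that holds *Ephb4*, summed to 949 to 2350 CPM among *Stk11*ec-/- libraries, against 784 to 2269 CPM in WT libraries. Glial markers summed to 0.693 to 1.83 CPM among *Stk11*ec-/- libraries, against 5.54 to 7.05 CPM in WT libraries, with no overlap. Levels were low, and only 3 of the 5 genes passed the filter on low counts. All 3 were lower with no overlap, where 6.59% of all tested genes were. By edgeR, 1 of the 3 had an unadjusted p under 0.05 on the lower side, where 2.97% of all did, and 0 passed at an adjusted p under 0.05. Leukocyte markers summed to 9.19 to 15.9 CPM among *Stk11*ec-/- libraries, against 12.3 to 34.3 CPM in WT libraries. *Ptprc*, which marks all leukocytes, was at 0 in 5 of 6 libraries and at 0.205 CPM in the other, and *Cd3e* of T cells, *Dpt* of fibroblasts and *Epcam* of epithelia were at 0 in all 6. Each of *Cd3e*, *Dpt* and *Epcam* was the only gene of its list at 0 throughout. In the same lists, *Cd68* was at 3.45 to 15.4 CPM, *Col1a1* at 37.0 to 4930 CPM and *Krt19* at 7.38 to 117.5 CPM over all 6 libraries.

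**Figure D3:**
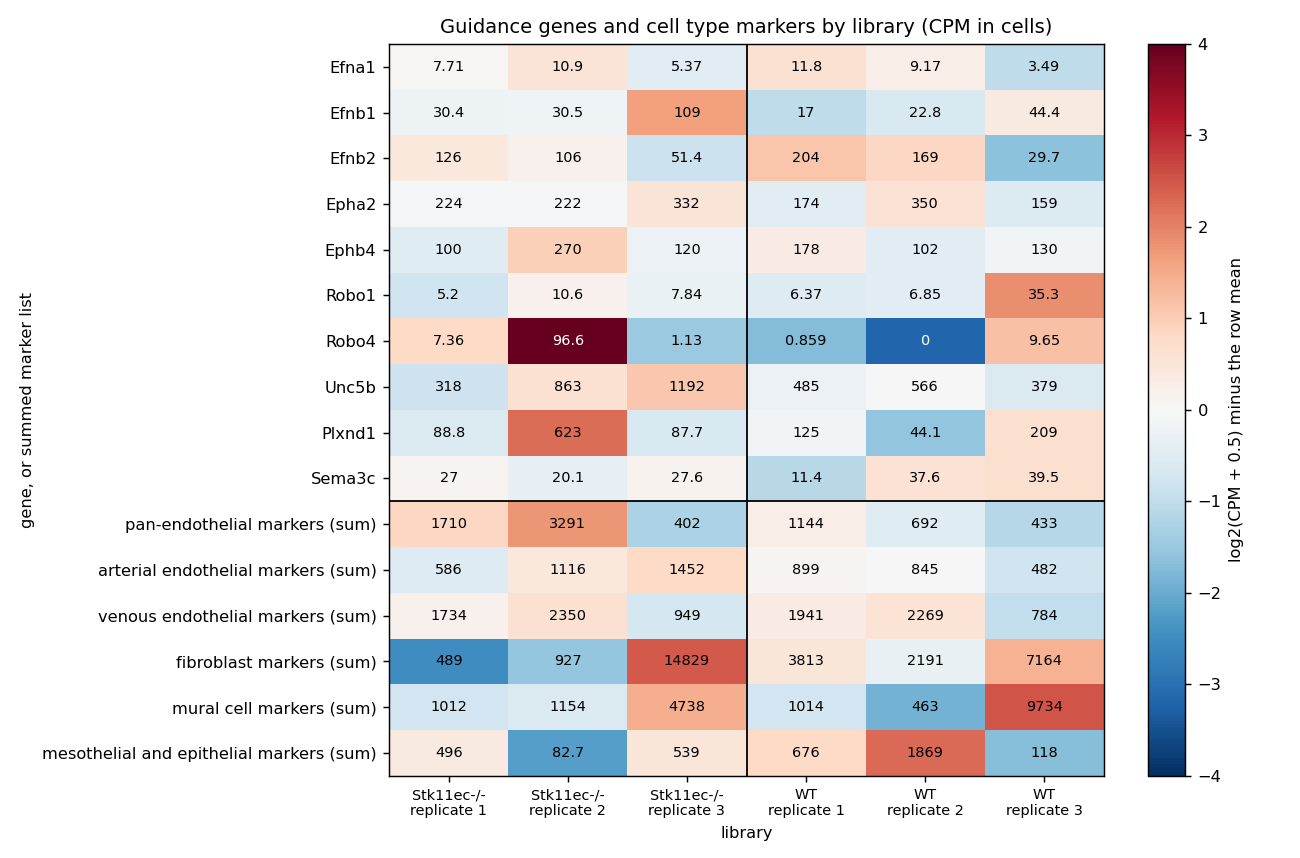
Level in CPM (number in each field) of the 10 genes and of 6 summed marker lists (rows) in each library (columns, *Stk11*ec-/- left, WT right), coloured by log2(CPM + 0.5) minus the mean of the row. Of the 10 genes, *Robo4* and *Plxnd1* have the deepest red fields, both in *Stk11*ec-/- replicate 2, whereas fibroblast and mural cell markers are highest in replicate 3 of each group. *Efnb2* and *Unc5b* are also part of the arterial sum, and *Ephb4* of the venous sum.

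Among 13015 tested genes with a given name, those nearest in centred profile were then listed for each gene, by the same root mean square difference over 6 libraries. For *Robo4* they were *Bcl6b*, a transcriptional repressor (0.35), *Mmrn1*, a multimerin of ECs and platelets (0.60), and *Rasgrp3*, a Ras activator (0.61). *Bcl6b* reached 16.03, 139 and 4.26 CPM across *Stk11*ec-/- libraries, against 2.22, 0.403 and 14.2 CPM across WT libraries, so that it was, like *Robo4*, highest in *Stk11*ec-/- replicate 2 and lowest in WT replicate 2. The nearest to *Efnb2* were *Tjp1* (0.21), *Fhdc1* (0.24) and *F11r* (0.25), of which *Tjp1* and *F11r* encode proteins of tight junctions. The nearest to *Robo1* were *Ptk7* (0.15), *Itga5*, the fibronectin receptor subunit (0.17), and *Fhl2* (0.19), all highest in WT replicate 3. *Rora* (0.13), *Prx* (0.19) and *Ccdc166* (0.24) were nearest to *Efnb1*, *Rgs17* (0.21), *Ugcg* (0.30) and *Trpc6* (0.36) to *Plxnd1*, and *Plekha1* (0.09), *Nr2c2* (0.12) and *Lratd2* (0.14) to *Ephb4*. For *Efna1* they were *Zfp36l2* (0.11), *Ttc21a* (0.12) and *Fbxo28* (0.13), for *Sema3c* *Cbr3* (0.16), *Lat2* (0.17) and *Rpl7-ps8* (0.17). For *Unc5b* they included *Rab27a* (0.22) and *Frmd3* (0.25), and for *Epha2* *Spats1* (0.11), *Esrrg* (0.11) and *Rpl19-ps12* (0.12), the last 3 all under 1 CPM. *Ttc21a* was also under 1 CPM in all 6 libraries, and *Ccdc166*, *Rab27a*, *Frmd3*, *Lat2* and *Rpl7-ps8* were under 3 CPM. *Rgs17* and *Trpc6* were under 3 CPM in every library but *Stk11*ec-/- replicate 2, where they were at 5.36 and 6.80 CPM. At such levels the added 0.5 narrows a profile.

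The rest of the guidance families was examined with the same fit. Of 89 further ligands, receptors and signalling partners, 88 had a locus and 76 were tested. At an adjusted p under 0.05, 0 of the 76 passed by edgeR, against 0.0747% of all tested genes. With no adjustment, 4 of them had a p under 0.05 on the higher side and 2 on the lower side, beside 4.36% and 2.97% of all tested genes, and the median log2 fold change was 0.060 beside 0.025 over all tested genes. Separate groups were found for 4 genes on the higher and 3 on the lower side, against 7.7% and 6.59% of all tested genes. By list, without the 10 genes, log2 fold changes were above 0 for 2 of 5 ephrins, 2 of 6 Eph receptors, 2 of 4 Slit and Robo genes, 5 of 11 netrins, Unc5 receptors and partners, 10 of 18 semaphorins, 4 of 8 plexins and neuropilins and 14 of 24 signalling partners, beside 8960 of all 17396.

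*Plxna4*, a plexin that pairs with neuropilin 1 for class 3 semaphorins, reached 31.4, 146 and 162 CPM across *Stk11*ec-/- libraries, against 13.8, 8.20 and 9.60 CPM across WT libraries. It was above all WT libraries in 3 of 3 *Stk11*ec-/- libraries, for a log2 fold change of 3.42 (SE 0.63 and edgeR adjusted p = 0.295), and it passed by DESeq2 (adjusted p = 9.13e-06) and by edgeR when low counts were kept (adjusted p = 0.0433). *Unc5a*, the relative of *Unc5b* found mainly in neurons, had 0, 0 and 4 counts across *Stk11*ec-/- libraries, against 84, 148 and 116 counts across WT libraries. In CPM these were 0, 0 and 0.0853 against 3.80, 4.97 and 3.02, with no overlap between groups. Its log2 fold change of −6.96 (SE 1.26 and edgeR adjusted p = 0.281) rests on 4 counts in 1 *Stk11*ec-/- library and was −10.20 without that library, and it passed by DESeq2 (adjusted p = 2.32e-08). On the scale of log2(FPKM + 1) it was −0.72, and *Unc5a* averaged 0.334 FPKM.

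The other genes at an unadjusted p under 0.05 passed in no setting, where DESeq2 gave no p for *Ephb2*. *Flrt3*, of the Flrt family whose members bind Unc5 receptors, reached 3.49, 15.7 and 1.599 CPM across *Stk11*ec-/- libraries and 1.40, 0.705 and 1.33 CPM across WT libraries, for a log2 fold change of 2.597 (SE 0.89 and edgeR adjusted p = 0.662) that was 1.15 without *Stk11*ec-/- replicate 2. *Rgma*, a ligand of neogenin, reached 12.8, 7.37 and 11.5 CPM across *Stk11*ec-/- libraries, against 70.5, 67.8 and 8.48 CPM across WT libraries. WT replicate 3 lay within the *Stk11*ec-/- range, and the log2 fold change was −2.21 (SE 0.73 and edgeR adjusted p = 0.648). *Dab2*, an adaptor for receptor endocytosis, reached 79.3, 203 and 101 CPM across *Stk11*ec-/- libraries, against 62.6, 36.1 and 37.0 CPM across WT libraries, for a log2 fold change of 1.499 (SE 0.43 and edgeR adjusted p = 0.622) and no overlap between groups. *Ephb2*, which binds B-type ephrins, reached 394 CPM in *Stk11*ec-/- replicate 3, the library with the most fibroblast markers. It was at 6.35 and 4.36 CPM in the other *Stk11*ec-/- libraries, against 3.30 to 14.8 CPM in WT libraries. Its lowest level was in WT replicate 3, where summed fibroblast markers were second highest at 7164 CPM. The part of these markers in its level was not tested. Its log2 fold change of 4.02 (SE 1.71 and edgeR adjusted p = 0.679) was −0.63 without *Stk11*ec-/- replicate 3.

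The binding partners of the 10 genes were measured too. *Slit2*, a Robo ligand, reached 11.6 to 29.5 CPM among *Stk11*ec-/- libraries, against 18.6 to 48.6 CPM in WT libraries. *Slit3* reached 15.1, 2.77 and 923 CPM across *Stk11*ec-/- libraries, and 182, 19.3 and 27.5 CPM across WT libraries. Its highest level was thus in the library with the most fibroblast markers. WT replicate 3, with the second highest sum of these markers, was at 27.5 CPM. The part of these markers was not tested. *Sema3e*, the ligand of plexin D1, reached 208, 138 and 78.8 CPM across *Stk11*ec-/- libraries, against 66.0, 109 and 40.8 CPM across WT libraries (log2 fold change 0.97, SE 0.48 and adjusted p = 0.687 by edgeR). *Flrt2*, which binds Unc5 receptors, reached 121, 320 and 78.4 CPM across *Stk11*ec-/- libraries, and 75.8, 109 and 73.6 CPM across WT libraries (log2 fold change 1.01, SE 0.52 and adjusted p = 0.701 by edgeR). For both genes the highest library was in the *Stk11*ec-/- group and the groups overlapped. The netrins *Ntn1* and *Ntn4* had log2 fold changes of 0.18 (SE 0.49) and 0.11 (SE 0.92). Of the neuropilins, *Nrp1*, whose locus is joined with *Mir1903*, had −0.085 (SE 0.33) and *Nrp2* 0.64 (SE 1.05). *Nrp2* ranged from 41.2 to 547 CPM among *Stk11*ec-/- libraries and from 23.6 to 320 CPM in WT libraries.

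The most abundant genes of each family by mean FPKM did not differ past the threshold either. Next to *Efnb2* and *Efnb1*, *Efna5* was the third ephrin at 8.36 FPKM, with a log2 fold change of 0.13 (SE 0.47), and *Efna4*, another A-type ephrin, was at 1.82 FPKM (log2 fold change −0.60, SE 0.61). *Epha4*, an Eph receptor that binds ephrins of both types, reached 3.05 FPKM (log2 fold change −0.13, SE 0.44). Among plexins, *Plxnb2* at 103 FPKM and *Plxna1* at 42.6 FPKM were above *Plxnd1*, with log2 fold changes of −0.11 (SE 0.39) and −0.29 (SE 0.38). *Sema3f*, a repellent that acts through neuropilin 2, led the semaphorins at 16.6 FPKM (log2 fold change −0.19, SE 0.72). Of the signalling partners, *Gipc1*, which binds plexin D1, reached 38.5 FPKM (log2 fold change −0.72, SE 0.37) and *Sdcbp*, the syntenin that binds the tail of B-type ephrins, reached 27.3 FPKM (log2 fold change 0.49, SE 0.36).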

How the data were processed

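For alignment and assembly the methods give HISAT2, StringTie and GRCm38, but BWA with TopHat, Cufflinks and mm9 stand in the submitters' notes. The authors deposited 1 table of 91725 assembled loci, with a whole-number count per locus and library, not scaled to library size, and an FPKM value, scaled by the authors to length and library size and written as 0.0001 where the count is 0. Deposited GO and KEGG annotations were not used. Spans of 9 of the 10 genes equal those of GENCODE M21 (GRCm38), and that of *Unc5b* does not.

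Of the table, 9721 loci without a gene name held 0.359% to 0.887% of counts and were left out. The main fit also left out 28474 named loci without an Ensembl transcript. These held 4.80%, 8.23% and 8.43% of counts across *Stk11*ec-/- libraries, and 6.12%, 13.2% and 13.4% across WT libraries. The 53530 loci with a gene name and an Ensembl transcript were analysed, of which 1298 join 2 or more named genes. Counts were normalized by TMM and tested with edgeR 4.0.16 in R 4.3.3 (default filter on low counts, quasi-likelihood test, Benjamini-Hochberg adjustment over 17396 loci, threshold 0.05). CPM are counts over the TMM-scaled library size. Alternatives were DESeq2 1.42.0, limma 3.58.1 on FPKM, other size factors, no filter, all named loci, a replicate block and each library left out. Leaving out both replicates 3 was added after the data were seen. Exact permutation tests used scipy 1.17.1. Steps were tested on simulated counts of the 17396 loci. At an adjusted p under 0.05, edgeR called 9.18% of genes set to differ 4-fold and 77.65% of those at 16-fold. DESeq2 called 46.4% and 90.5%. Of genes with no difference set, edgeR called 0.0371% and DESeq2 0.379%. Most differences of 4-fold would thus be missed by edgeR in such data. Every pair of libraries differed beyond sampling noise (chi-square over degrees of freedom from 178 upward).

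The members and lists were chosen with earlier results of these data known. Named genes are the 10 members, *Stk11*, guidance genes at an unadjusted p under 0.05, the most abundant 2 of each list, binding partners of members, and the 3 nearest profiles of each member. One of these profiles is not reported here. *Xist*, *Cdh5* and *Ptprc* were named beside it as checks. Groups follow the labels. Depth ranged from 22179567 to 55545899 counts. For genes with many reads, counting error is small beside the spread between libraries, whose common coefficient of variation was 0.628. It is not small where reads are few, as for *Unc5a* in *Stk11*ec-/- libraries (0, 0 and 4 counts) and *Robo4* in WT replicate 2 (0 counts).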

Additional observations from a re-analysis of the deposited data

Results flagged for a closer look

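A short assembled locus downstream of *Epha2* (chr4:141331196-141331432, no strand, no Ensembl transcript), outside the comparison, held 5, 22 and 1 counts in *Stk11*ec-/- replicates 1, 2 and 3, which is 0.0872, 0.565 and 0.0213 CPM, against 0 counts in each WT library. Its level above the WT libraries drew attention to it. A count of 0 allows up to 3 counts per library, which is 0.136, 0.101 and 0.0781 CPM in WT replicates 1, 2 and 3. *Stk11*ec-/- replicate 3 lay under all 3 of these limits and *Stk11*ec-/- replicate 1 under those of WT replicates 1 and 2, so that only *Stk11*ec-/- replicate 2 lay above all of them, and the difference was not tested.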

How the results depend on the processing

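At an adjusted p under 0.05, 0 of the 10 genes were called in any setting tried. At an unadjusted p under 0.05 the count was 0, but 1 in 6 settings: *Efnb1* in both limma fits and with the replicate block, *Robo4* without WT replicate 3 and with neither replicate 3, and *Unc5b* without *Stk11*ec-/- replicate 1. Of the recomputed log2 fold changes of these genes, 121 kept their sign and 19 did not. Signs turned with limma on log2(FPKM + 1) for *Efna1* (0.22), *Efnb2* (0.034) and *Sema3c* (0.15), and with log2(FPKM + 0.1) for the same genes (0.35, 0.090 and 0.22), where the median of all tested genes also shifted, to 0.14 and 0.29. With neither replicate 3 (tried only once the data had been seen), *Epha2* was at −0.23 and *Robo1* at 0.26. *Robo4* (6.999), *Plxnd1* (2.08), *Unc5b* (0.17), *Efna1* (−0.17), *Efnb1* (0.61), *Ephb4* (0.40) and *Sema3c* (−0.057) moved by over 1.5 times with no change of sign. Only *Efnb2* (−0.68) moved by less. With 1 library left out at a time, values ran from −0.39 to 0.34 for *Efna1*, −0.029 to 0.65 for *Epha2*, −0.30 to 0.52 for *Ephb4*, −0.51 to 1.66 for *Plxnd1*, −1.41 to 0.25 for *Robo1* and −0.62 to 0.025 for *Sema3c*. The cause of these turns was not tested. Over all genes, edgeR called 13, against 216 by DESeq2, 23 by limma with 0.1 added, 36 with no filter, 0 with neither replicate 3 (2254 at an unadjusted p under 0.05), and 2 to 4 with 1 library left out. Of the further guidance genes, 0 were called by edgeR, 2 by DESeq2 and 1 with no filter. Replicate numbers are shared by both groups, and the methods call the differential expression analyses paired but do not say which libraries form a pair. Deviations of log2(CPM + 0.5) from the mean of the group correlated at 0.26, −0.24 and 0.04 between same-numbered libraries, so these were not read as pairs. By these deviations, *Stk11*ec-/- replicate 1 correlated best with WT replicate 1 (0.26) and *Stk11*ec-/- replicate 2 with WT replicate 3 (0.27). *Stk11*ec-/- replicate 3 correlated about equally with WT replicates 2 and 3 (0.047 and 0.042). With the replicate block, 1 gene was called over all genes and 0 of the 10, and *Efna1* was at 0.088. With 3 libraries a group, the intervals above limit what could be detected. When 1 library is left out, a group keeps 2.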

Other observations

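Apart from the 10 loci, 20 assembled loci with no Ensembl transcript carry the symbol of one of these genes, 10 of them that of *Robo1*, and hold 1.71% of the counts of the 10 loci. Within *Unc5b*, which lies on the minus strand, 2 assembled loci were placed on the plus strand. The first (chr10:60802845-60807044) was at 1.83, 15.6 and 14.5 CPM across *Stk11*ec-/- libraries, and 14.0, 8.43 and 6.30 CPM across WT libraries. The second (chr10:60827327-60829406) was at 3.17, 17.4 and 20.7 CPM across *Stk11*ec-/- libraries, and 11.2, 9.20 and 5.98 CPM across WT libraries. Both were lowest in *Stk11*ec-/- replicate 1, as was *Unc5b* itself. Whether the libraries keep strand is not given in the sources used here, so these reads cannot be told apart from those of *Unc5b*.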
